A study of Sus scrofa with 8 samples.

Results

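MME, ANPEP, DPP4, ENPEP and ACE are peptidases that sit in the outer membrane of cells, and their transcripts were measured in the testes of 8 boars. The probes were chosen by gene name. A probe was taken if the pig RefSeq gene table gives its accession to one of the 5 genes, or if the study's own list of diet differences names it so. This found 6 of the 43603 probes on the array that are not controls, a pair for MME and 1 for each of the other genes. The 5 genes are among 2228 with a named probe. The MME pair and the DPP4 probe are in that list, which was selected on a P-value below 0.05 between the diets in the same 8 boars. Their diet differences are therefore given as a description, without a test. The probes of ANPEP, ENPEP and ACE are named by RefSeq alone and are not in the list. The list leaves out probes at or above its limit, and in the ordinary equal-variance test these 3 probes were above 0.05, so the limma P-values given for them add no independent evidence that the diets do not differ. Among the 6 probes, the one in the list nearest to its limit was the MME probe A_72_P279314, with a P-value of 0.0419 in an ordinary equal-variance test of the present values, and the nearest one outside was ANPEP, with 0.226.

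Large White boars received, from month 1 to month 10 of life, either a standard diet (control) or the same diet with added folate, vitamins B12 and B6, betaine, choline and methionine (supplemented). RNA of whole testis tissue was labelled with Cy3 and hybridized to 1 porcine Agilent array per boar. The supplemented boars were m_9597, m_9599, m_9499 and m_9527, and the control boars were m_9598, m_9600, m_9502 and m_9528. Boars m_9597, m_9598, m_9599 and m_9600 were full brothers from one litter and shared slide 1, and the other 4 boars, which come from more than one further litter, shared slide 2. Litter and slide therefore cannot be told apart, and which of the other boars were littermates is not given in the sources used here. Each slide held 2 boars of each diet, but the supplemented boars always took places 1 and 3 and the control boars places 2 and 4, and these cannot be told apart either. The median spot signal of an array was between 108 and 192.5, over a median local background of 22 to 27. The share of spots well above background ran from 76.3% to 79.6% in the supplemented boars and from 77.3% to 86.5% in the control boars. The part of this difference in array brightness in the results was not tested. Values below are log2 signals after quantile normalization, without subtraction of the background, which makes differences of dim probes appear smaller than they are.

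Membrane peptidases are enzymes whose catalytic domain faces the outside of the cell, where they shorten or destroy signalling peptides before or after these reach their receptors. They are classed by where they cut, with aminopeptidases removing residues from the front of a peptide, dipeptidyl peptidases removing pairs of residues, and endopeptidases such as neprilysin cutting inside the chain. In the male reproductive tract such enzymes are found on epithelial cells of the ducts and on sperm cells, which carry a shorter form of ACE of their own.

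All 6 probes were present, that is, above a signal of 25 and well above background on 2 or more of the 4 arrays in either diet, and each was in fact well above background on all 8 arrays. In all 36982 probes were present, and the members passed this filter in both groups. Each of the 6 probes has 1 spot per array, and none of these spots was marked as an outlier. The margin over the local background differed between probes. At its lowest over the 8 boars, which was not the same boar for each probe, the signal was 2.32 times the background for the MME probe A_72_P279314, 2.63 times for DPP4 and 2.83 times for ENPEP, against 5.79 times for the MME probe A_72_P292974, 13.4 times for ACE and 78.7 times for ANPEP. The tissue carried the transcripts that mark a testis. The spermatid list had 4 present probes, the one with the highest signal for the protamine gene PRM1, and the Leydig cell list had 11, the one with the highest signal for INSL3. Signals of different probes do not rank transcripts by abundance.

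MME codes for neprilysin, a zinc endopeptidase that degrades enkephalins, tachykinins, bradykinin and natriuretic peptides. On the probe A_72_P292974 the supplemented boars m_9597, m_9599, m_9499 and m_9527 had log2 signals of 7.63, 7.38, 7.66 and 7.69. The control boars m_9598, m_9600, m_9502 and m_9528 had 8.98, 8.63, 8.84 and 9.18. Every supplemented boar lay below every control boar, and the boars of one diet lay close together. The means were 7.59 ± 0.14 (SD, n = 4) and 8.91 ± 0.23 (SD, n = 4), a log2 difference of -1.32 (standard error 0.16) or a 2.49-fold lower signal on the supplemented diet. The difference was of the same size on both slides, -1.30 among the brothers and -1.34 among the other boars. In bulk tissue, fewer cells of the type that makes a transcript and less of the transcript per cell cannot be told apart.

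On the other MME probe, A_72_P279314, the supplemented boars m_9597, m_9599, m_9499 and m_9527 had 6.92, 6.70, 6.46 and 6.01. The control boars m_9598, m_9600, m_9502 and m_9528 had 7.95, 7.05, 6.83 and 8.11. Here the control boars fell apart into a high pair, m_9598 and m_9528, and a low pair, m_9600 and m_9502, and boar m_9502 lay below the supplemented boar m_9597, so that the diets overlapped. The means were 6.52 ± 0.39 (SD, n = 4) and 7.48 ± 0.64 (SD, n = 4), a log2 difference of -0.96 (standard error 0.32) and a 1.95-fold lower signal on the supplemented diet. It was -0.69 among the brothers and -1.23 among the other boars. Both MME probes were therefore lower on average on the supplemented diet, with a wider spread among the control boars on the dimmer one.

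The probes are oligonucleotides of 60 bases, and the sequences are shown because the MME pair read different stretches of sequence and gave different spreads. The longest run of bases that the pair share is 4, so they do not repeat each other. The names MME come from the study's list, since the array files give 1 of them an Ensembl transcript and the other a consensus of expressed sequences. The G and C content was 38.3% for A_72_P279314, 43.3% for A_72_P292974 and 35% for the DPP4 probe. The first 30 bases of each probe oligo, as the study lists them, are:
MME A_72_P279314: ctttgcagaactctcctgagttttcagaag
MME A_72_P292974: taaatgtgtccctggagtgaatatgatcaa
DPP4 A_72_P035536: aaagccacttttgctctcattatctccaaa

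DPP4 codes for dipeptidyl peptidase 4, which removes a dipeptide from the front of chemokines and of gut hormones such as the incretins. On its probe A_72_P035536 the supplemented boars m_9597, m_9599, m_9499 and m_9527 had 6.67, 6.60, 6.58 and 6.17, and the control boars m_9598, m_9600, m_9502 and m_9528 had 7.20, 7.19, 7.34 and 6.88. The diets did not overlap, and boar m_9527 was the lowest of its diet, as it was on the MME probe A_72_P279314. The means were 6.51 ± 0.23 (SD, n = 4) and 7.15 ± 0.19 (SD, n = 4), a log2 difference of -0.65 (standard error 0.17) or a 1.56-fold lower signal on the supplemented diet. The difference was -0.56 among the brothers and -0.74 among the other boars. It was -0.81 after subtraction of the background and scaling by the 75th percentile, and -0.43 with normexp, which adds an offset of 50. The order of the control boars was not that of MME, since boar m_9502 was the highest control boar for DPP4 and the lowest for the MME probe A_72_P279314.

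**Figure D1:**
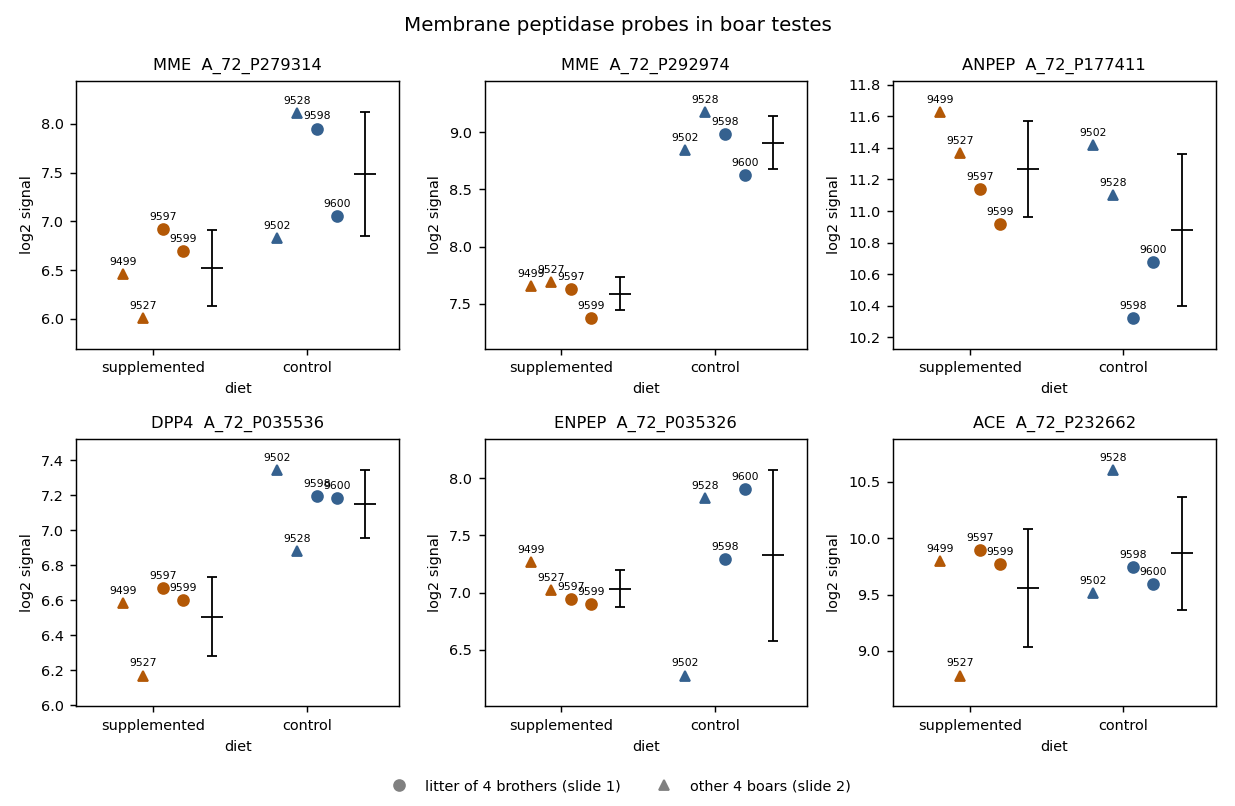
Log2 signal (vertical axis) of the 6 probes of MME, ANPEP, DPP4, ENPEP and ACE in each boar by diet, with boar numbers, circles for the litter of 4 brothers on slide 1 and triangles for the other 4 boars on slide 2. The black marks are the mean and SD of each diet group (n = 4), and the diets are apart without overlap for the MME probe A_72_P292974 and for DPP4, while the 4 other probes overlap.

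ANPEP codes for aminopeptidase N, which trims neutral residues from peptides and is also the receptor of a pig coronavirus. On its probe A_72_P177411 the supplemented boars m_9597, m_9599, m_9499 and m_9527 had 11.14, 10.92, 11.63 and 11.37, and the control boars m_9598, m_9600, m_9502 and m_9528 had 10.32, 10.68, 11.42 and 11.10. The boars of slide 2 were the high ones within each diet, and the diets overlapped. The means were 11.26 ± 0.30 (SD, n = 4) and 10.88 ± 0.48 (SD, n = 4). The log2 difference between the diets was 0.38 (standard error 0.25) and was not significant, with an adjusted P-value of 0.840 from limma. It was 0.53 among the brothers and 0.24 among the other boars, and 0.20 without the control boar m_9598.

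ENPEP codes for aminopeptidase A, which removes acidic residues and turns angiotensin II into angiotensin III. On its probe A_72_P035326 the supplemented boars m_9597, m_9599, m_9499 and m_9527 had 6.94, 6.90, 7.27 and 7.02, and the control boars m_9598, m_9600, m_9502 and m_9528 had 7.30, 7.90, 6.27 and 7.83. The supplemented boars lay close together inside the wide range of the control boars, of which m_9502 was the lowest of all 8. The means were 7.03 ± 0.16 (SD, n = 4) and 7.33 ± 0.75 (SD, n = 4). The log2 difference of -0.29 (standard error 0.33) was not significant, with an adjusted P-value of 0.846 from limma, and its direction differed between the slides, with -0.68 among the brothers and 0.10 among the other boars. It was -0.64 without boar m_9502, -0.10 without boar m_9600 and -0.12 without boar m_9528.

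ACE codes for the angiotensin-converting enzyme, which makes angiotensin II and degrades bradykinin. On its probe A_72_P232662 the supplemented boars m_9597, m_9599, m_9499 and m_9527 had 9.90, 9.77, 9.79 and 8.78, and the control boars m_9598, m_9600, m_9502 and m_9528 had 9.74, 9.60, 9.52 and 10.61. Of the 8 boars 6 were between 9.52 and 9.90, with boar m_9527 below and boar m_9528 above them. The means were 9.56 ± 0.52 (SD, n = 4) and 9.87 ± 0.50 (SD, n = 4). The log2 difference of -0.30 (standard error 0.31) was not significant, with an adjusted P-value of 0.842 from limma. It was 0.16 among the brothers and -0.77 among the other boars, -0.05 without boar m_9527, -0.06 without boar m_9528 and -0.02 with array weights in limma. The probe was not assigned to the long body form or to the short sperm cell form of ACE.

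Of the 6 probes 3 were at least 1.5-fold lower on the supplemented diet, against 2.7% of all present probes, and 2 of the 6 had diets without overlap, against 1.13%. The same 3 probes, the MME pair and DPP4, had a limma P-value under 0.05, against 1.86% of all present probes. These are the probes that the study's list had picked on this contrast, so nothing is read from the counts. Over all present probes limma gave 0 with an adjusted P-value under 0.05, with 689 at an unadjusted P-value under 0.05, and the ordinary equal-variance test gave 0 and 717. With 4 arrays per diet, their number limits how precise these values are.

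The litter of brothers was compared with the other 4 boars, with the diet in the fit, a contrast on which the study's list was not selected. The members themselves were chosen with earlier results of these data known. The selection of the MME pair and DPP4 on the diet also favours little spread within a diet. ANPEP was 10.77 on average in the brothers and 11.38 in the other boars, and the brother with the highest value, m_9597, lay just above the lowest of the other boars, m_9528. The log2 difference was -0.61 (standard error 0.16) with an unadjusted P-value of 0.00512 from limma, but the adjusted P-value was 0.554. It was the 1 probe of 6 with an unadjusted P-value under 0.05, against 8.11% of all present probes, 2999 in number. With adjustment 0 of 6 probes passed in limma, against 0% of all present probes, and the ordinary equal-variance test also gave 0. For the MME probes the litter difference was 0.30 (standard error 0.32, adjusted P-value 0.782 from limma) on A_72_P279314 and -0.19 (standard error 0.15, adjusted P-value 0.720) on A_72_P292974. DPP4, ENPEP and ACE differed by 0.17, 0.16 and 0.08, with adjusted P-values of 0.755, 0.90 and 0.954. Leaving out single boars moved these small differences by more than 1.5 times, to 0.10 without m_9502 and 0.61 without m_9528 for the MME probe A_72_P279314, and to 0.07 without m_9527 and 0.28 without m_9502 for DPP4. The difference of ENPEP turned to -0.23 without m_9502 and -0.04 without m_9600, and that of ACE to -0.22 without m_9527, -0.05 without m_9502 and -0.04 without m_9597.

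Whether the diet difference itself differed between the brothers and the other 4 boars was tested as an interaction. Of the 6 probes 0 had an unadjusted P-value under 0.05 in limma, against 2% of all present probes. The MME pair and DPP4 were picked for a small diet P-value in these boars, which favours boars of one diet that agree. Nothing is therefore read from the count or from their small interactions. After adjustment limma gave 0 of all present probes, with 738 at an unadjusted P-value under 0.05, and the ordinary test gave 0 and 1063. The interaction of the MME probe A_72_P292974 was 0.04 (standard error 0.33). That of ACE was 0.94 (standard error 0.62, adjusted P-value 1 from limma), and it was 0.43 without boar m_9527 and 0.39 without boar m_9528. That of ENPEP was -0.77 (standard error 0.68), with -1.55 without boar m_9528 and 0.0038 without boar m_9502. With 2 boars of each diet on a slide, an interaction had to be well above its standard error to be detected. Those of ACE and ENPEP were larger than their standard errors and still had no unadjusted P-value under 0.05 in limma.

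The members were also set against each other over the 8 boars, which share their arrays and the normalization. The Pearson correlation of the MME pair was 0.784 (n = 8 boars), and 0.477 once the mean of each diet was subtracted. The MME probe A_72_P279314 and ACE had a correlation of 0.757, and of 0.801 with the diet means subtracted. Boar m_9527 was the lowest and boar m_9528 the highest of the 8 on both probes. The MME probe A_72_P292974 and DPP4 had 0.777 over all boars, which holds the step between the diets for which both were picked, and -0.552 with the diet means subtracted. The sign thus turned once the step between the diets was taken out.

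Among 2477 present probes with a RefSeq name, those whose profile over the 8 boars was most like that of the MME probe A_72_P292974 were TFPI (r = 0.956), an inhibitor of the start of blood clotting, NQO1 (0.917), a quinone reductase, GAL3ST2 (0.905), a sulfotransferase for sugar chains, ROMO1 (0.888), a mitochondrial membrane protein, and TOR1A (0.875), a chaperone of the endoplasmic reticulum. All 5 are in the study's list of diet differences. With the mean of each diet subtracted the most alike were GAL3ST2 (0.976), the heat shock protein HSPH1 (0.951), the potassium channel KCNA2 (0.945), the splicing factor SRSF11 (0.926) and the deacylase SIRT6 (0.920). GAL3ST2 was thus the gene found both ways. With 8 boars and this many probes, high correlations arise easily, and they are given as a description.

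The relatives of the members were looked up in lists of peptidases. Of the 126 genes in all lists, substrates and receptors included, 46 had a present probe with a name, 53 probes in all, 47 of them for genes other than the members. The neprilysin family had 1 further probe, ECEL1 (A_72_P166166), an endopeptidase mostly known from nerve cells, which was 0.52 higher on the supplemented diet (standard error 0.19), the opposite direction to MME. ECEL1 is also in the study's list. For the family of aminopeptidase N the 4 present probes, members included, had a median of -0.05, with 2 higher and 2 lower. Of them 0 had a P-value under 0.05 in limma and 1, LTA4H, in the ordinary equal-variance test. Over all present probes the share was 1.86% in limma and 717 of 36982 in the ordinary test. LTA4H (A_72_P346078), which makes leukotriene B4, had a diet difference of -0.23 (standard error 0.14). It has its name from the study's list alone and so entered the family through the diet contrast. Nothing is read from the count or the median.

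The prolyl and dipeptidyl peptidases had 5 present probes, DPP4 included, with a median of 0.24, 3 higher and 2 lower. Both lower probes, DPP4 and FAP, are in the study's list, and FAP has its name from it alone. FAP thus entered the family through the diet contrast, and nothing is read from the median or the split. FAP (A_72_P408303), the closest relative of DPP4 and a marker of activated fibroblasts, was between 6.61 and 7.82 in the supplemented boars and between 7.94 and 8.24 in the control boars. The diets did not overlap, and the log2 difference was -0.81 (standard error 0.26), in the direction of DPP4. FAP is in the study's list too, so the pair is no independent sign of a shared change. In the RefSeq table for the assembly Sscrofa11.1 the genes follow one another as DPP4, GCG and FAP. XPNPEP2 (A_72_P146496), the membrane-bound aminopeptidase P that degrades bradykinin, was 0.48 higher (standard error 0.21), and the diets overlapped. Its P-value from limma was 0.0461 unadjusted and 0.840 adjusted, and that of the ordinary equal-variance test was 0.0691 unadjusted. The probe was dim, with a signal of 1.6 to 3.08 times the local background over all boars. APEH (A_72_P053446), which frees acetylated residues from peptides, had 0.24 (standard error 0.21).

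The carboxypeptidases and other surface peptidases had 7 present probes with a median of -0.10. Of these 5 are in the study's list, and 4 of the 5 have their name from it alone, so that they entered the family through the diet contrast and nothing is read from the count or the median. The pair of NAALADL2 probes, A_72_P034406 and A_72_P212087, had log2 differences of -0.46 (standard error 0.16) and -0.43 (standard error 0.17), each without overlap of the diets. NAALAD2 (A_72_P365533), a dipeptidase related to the prostate membrane antigen, was 0.59 higher (standard error 0.22). These 3 probes are in the list, and their differences are descriptions like that of MME. In the ordinary test alone, GGT1 (A_72_P035641) and CPD (A_72_P044381) also had a P-value under 0.05. Their differences were 0.25 (standard error 0.14) and -0.10 (standard error 0.12), and both are in the list too. The family thus had 3 probes under 0.05 in limma and 5 in the ordinary test. Over all present probes the share was 1.86% in limma and 717 of 36982 in the ordinary test. The soluble oligopeptidases, which degrade the same kinds of peptide inside cells, had 6 present probes with a median of -0.05, 2 higher and 4 lower. Of them 0 had a P-value under 0.05 in limma and 1 in the ordinary test, TPP2 (A_72_P174616). TPP2 has its name from the study's list alone, so nothing is read from this count or median. THOP1 (A_72_P178126), an oligopeptidase abundant in testis, had 0.07 (standard error 0.17).

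**Figure D2:**
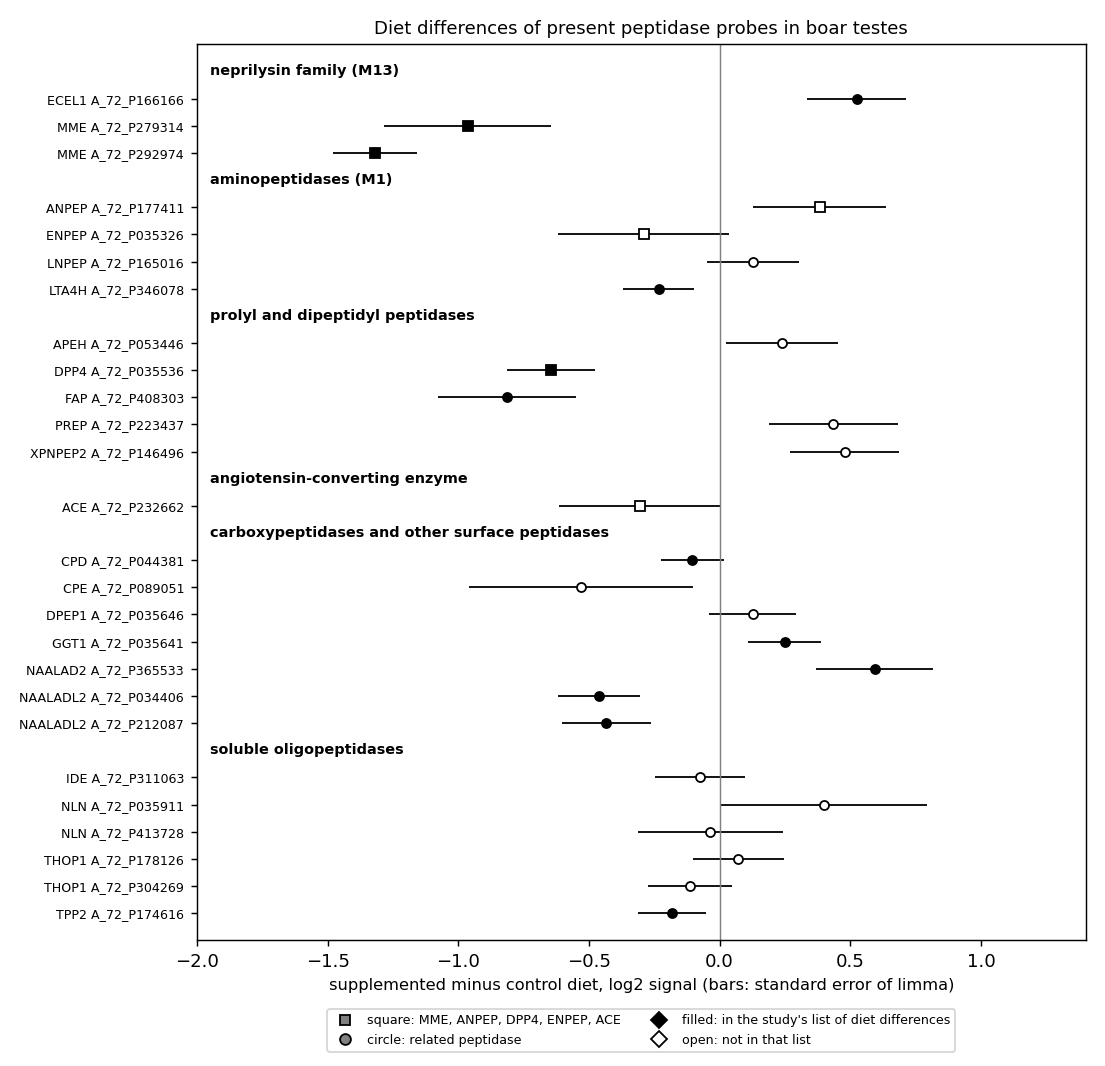
Supplemented minus control diet in log2 signal (horizontal axis) for 26 present probes of the peptidase lists, with the standard error from limma as bars, squares for MME, ANPEP, DPP4, ENPEP and ACE and circles for their relatives. Filled symbols are the 12 probes in the study's list of diet differences, which were picked on this contrast, and open symbols are the other probes. The MME pair lies farthest to the left, at -1.32 and -0.96.

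On the side of the peptides, 14 probes of precursors that such enzymes cut were present, for 13 of 31 listed genes. Their median diet difference was 0.03, with 9 higher and 5 lower and 0 with a P-value under 0.05 in limma or in the ordinary test. Over all present probes the share under 0.05 was 1.86% in limma and 717 of 36982 in the ordinary test. CCK (A_72_P232347), the precursor of cholecystokinin, had -0.13 (standard error 0.34). Of the receptors of these peptides 11 probes were present, for 10 of 30 listed genes, with a median of -0.03, 5 higher and 6 lower, 0 with a P-value under 0.05 in limma and 1, VIPR2, in the ordinary test. VIPR2 (A_72_P348313), a receptor of vasoactive intestinal peptide, was between 11.40 and 11.58 in the supplemented and between 11.09 and 11.36 in the control boars. Its log2 difference was 0.25 (standard error 0.13), and it has its name from the study's list alone. AVP and GNRH1 were well above background on 0 and 1 supplemented and 3 and 2 control arrays. SSTR2 and the EDNRB probe A_72_P146416 were so on 0 supplemented and on 2 and 3 control arrays. They passed the filter through the control group alone. Nothing is therefore read from the counts, medians or directions of the substrate and receptor lists. Over all lists, the 37 probes of relatives, substrates and receptors that are named by RefSeq and stand outside the study's list had 22 higher and 15 lower differences with a median of 0.05, beside a median of -0.00285 over all present probes. These probes are what remains once the probes of that list, picked for a small P-value on this contrast, are taken out, so their small differences follow in part from that and nothing is read from them.

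Markers of the cell types in the tissue were read beside the members, since neprilysin and DPP4 are carried by epithelial and stromal cells. The duct epithelium list had 5 present probes, for 2 of its 7 genes, EPCAM and CDH1, with the highest signal on an EPCAM probe and no probe below background on all arrays. Its summed linear signal was 1962, 13410, 4832 and 5018 in the supplemented boars m_9597, m_9599, m_9499 and m_9527 and 20010, 12310, 4528 and 11750 in the control boars m_9598, m_9600, m_9502 and m_9528. It was thus high in 3 of 4 control boars and in 1 supplemented boar, and the diets overlapped. The median log2 difference of the list between the diets was -0.95, the same direction as MME and DPP4. In limma and in the ordinary test 0 of 5 probes had a P-value under 0.05, against 1.86% of all present probes in limma. This median rests on EPCAM, whose 3 probes had -0.95, -1.19 and -1.15, while the CDH1 pair had -0.18 and -0.15. The dimmer CDH1 probe, A_72_P164631 (-0.15), was well above background on 0 supplemented and 2 control arrays. It passed the filter through the control group alone, so nothing is read from its difference. The part of this tissue in the MME and DPP4 differences was not tested.

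The Leydig cell list had a median difference of -0.35 between the diets, with boar m_9499 the highest of the 8 and boar m_9527 the lowest by the list median. The lists with a higher median on the supplemented diet were macrophages (0.34), spermatogonia (0.29), peritubular smooth muscle (0.28), Sertoli cells (0.07) and spermatids (0.02). For macrophages the highest of the 8 by the list median was the control boar m_9600. The macrophage probe with the highest signal, AIF1 (A_72_P394883), had -0.23 among the brothers and 1.30 among the other boars. Those with a lower one were fibroblasts (-0.15, DCN alone), spermatocytes (-0.06, 1 SPO11 probe), endothelium (-0.05, 4 probes from -0.15 to 0.72) and T cells (-0.04). The endothelium probe A_72_P310398 of CDH5 (-0.09) was well above background on 1 supplemented and 3 control arrays. It passed the filter through the control group alone, so nothing is read from the endothelium median. In each of these cell type lists limma and the ordinary test gave 0 probes with a diet P-value under 0.05. Over all present probes the share was 1.86% in limma, and nothing is read from these counts. For red blood cells no probe carried a listed name. The part of these cell types in the values of the members was not tested.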

How the data were processed

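The authors deposited for each boar the intensity of every spot from Agilent Feature Extraction (version 10.5.1.1 per the file headers), not normalized between arrays. They also deposited log2 values, which equal the quantile-normalized log2 of the median intensity for 35258 probes (r = 1, largest difference 0.056) and served as an alternative. From the scanner files the log2 median intensity was quantile-normalized without control spots, and spots of one probe were averaged. Diet, litter and their interaction were fitted with limma 3.58.1 in R 4.3.3 (two-sided, Benjamini-Hochberg adjustment over 36982 present probes), tested on simulated data. Of 3239 probes with a RefSeq accession 2628 matched the RefSeq table (Sscrofa11.1, used for names and gene order). With the study's list, of which the copy used here holds 480 rows, 3064 probes had a name.

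The members, the peptidase, substrate and receptor lists and the cell type markers were chosen with earlier results of these data known. Named were all member probes and the 5 most alike to the MME probe with the smallest P-value. Of the peptidase, substrate and receptor lists, the probes with a P-value under 0.05 in limma or the ordinary test were also named. So was the probe with the highest mean signal of each of these lists. One gene of the lists is counted in their totals but is not reported here. Likeness was taken over 8 boars and after subtraction of the diet means. The alternatives were other signal columns and scalings, normexp (offset 50), other filters on dim probes, the ordinary test, array weights, litter as a block, each litter alone, outlier spots left out, the deposited values and each boar left out. Plots were made in Python 3.11.15 with matplotlib 3.10.9.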

Additional observations from a re-analysis of the deposited data

Results flagged for a closer look

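In the ACE probe A_72_P232662 the supplemented boar m_9527 stood apart, at 8.782 on the log2 scale against 9.77 to 9.90 in the 3 other boars of its diet. Its gap to the nearest boar was 0.887 of the range of the group. The limit of this flag is lower than that gap, and chance passes it in about 1 in 20 independent groups. That would be 1.2 of the 24 diet groups examined, and 1 was found. These groups share the same 8 boars and include probes picked on the diet, so 1.2 is no exact expectation. Nothing is read from the count. The same boar was the lowest of the 8 on the MME probe A_72_P279314 and on DPP4. Without it the diet difference of ACE was -0.05, against -0.30 with all boars.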

How the results depend on the processing

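The diet differences of both MME probes, of DPP4 and of ANPEP kept their direction under every alternative run. The MME probe A_72_P292974 ran from -1.49 after subtraction of the background and scaling by the 75th percentile to -1.10 with normexp, and from -1.41 to -1.23 without single boars. The MME probe A_72_P279314 ran from -1.24 to -0.69, DPP4 from -0.81 to -0.43, the latter with normexp, and ANPEP from 0.24 to 0.59. Without single boars these 3 ran from -1.18 to -0.76, from -0.74 to -0.53 and from 0.20 to 0.56. ACE turned to 0.16 in the 4 brothers alone and ENPEP to 0.10 in the other 4 boars alone, fits with 2 boars per diet. The number of probes with a P-value under 0.05 between the diets, 689, was 5830 with array weights. A fit of the brothers alone gave 2381 and one of the other boars 359. Leaving out 1 boar at a time moved it from 339 (without m_9528) to 6155 (without m_9502), with 369 without m_9598, 438 without m_9527 and 1213 without m_9600. After adjustment limma gave 0 probes, but 1 with array weights, the MME probe A_72_P292974, which had been picked on this contrast, and 3 in the brothers alone, and 0 to 1 with each boar left out, the 1 without boar m_9502. Array weights gave boar m_9502 a weight of 0.316, the lowest of the 8. The number under 0.05 for the litter, 2999, ran without single boars from 1557 (without m_9599) to 9519 (without m_9528), with 1906 without m_9597 and 1963 without m_9598. That for the interaction, 738, ran from 360 (without m_9599) to 5830 (without m_9502), with 387 without m_9597, 400 without m_9600, 1204 without m_9499 and 1520 without m_9528. Over the same fits the litter difference ran from -0.23 to 0.40 for ENPEP from -0.22 to 0.39 for ACE, from 0.10 to 0.61 for the MME probe A_72_P279314, from -0.26 to -0.11 for A_72_P292974 and from 0.07 to 0.28 for DPP4. The interaction ran from -0.10 to 1.18 for the MME probe A_72_P279314, from -0.14 to 0.22 for A_72_P292974, from -0.0505 to 0.411 for DPP4, from -1.55 to 0.0038 for ENPEP, from 0.11 to 0.47 for ANPEP and from 0.39 to 1.48 for ACE. Under that subtraction and scaling, where signal and scaling change together, the litter difference of A_72_P292974 was -0.05 and its interaction -0.18. The litter differences of the MME probe A_72_P279314, DPP4, ENPEP and ACE were then 0.51, 0.10, 0.08 and 0.22. The interaction of DPP4 was then 0.06. The causes were not tested. Of the 6 member probes, the MME probe A_72_P279314, DPP4 and ENPEP had the lowest margins over background.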
